A study of Mus musculus with 6 samples.

Results

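Transcripts of *Nos1*, the neuronal nitric oxide synthase (nNOS) that skeletal muscle anchors under its surface membrane, and of 7 genes of the dystrophin glycoprotein complex were followed in the gastrocnemius, the large calf muscle, of 6 mice. The 8 genes (*Nos1*, *Dmd*, *Sgca*, *Sgcb*, *Sgcd*, *Dag1*, *Dtna* and *Utrn*) were picked by symbol from the 23997 symbols of the deposited values, and all 8 were found. They were picked after *Nos1* had been seen to be lower in *HrasG12V* muscle in this same comparison, so their values by genotype are a description and carry no p. All 8 had a mean of at least 0.5 FPKM and so were among the 13359 genes tested. FPKM is the number of sequenced fragments per kilobase of transcript, scaled to the size of the library, so levels can be compared between genes per length. The question was whether the lower *Nos1* extended to the genes that hold nNOS at the membrane.

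The *HrasG12V* group held mice 2276, 2278 and 2279, which were Caggs-Cre+/HrasG12V/+, and the wild-type (WT) group held mice 2277, 2280 and 2281, which were Caggs-Cre-/HrasflG12V/+, all 21 days old and untreated, with 1 library per mouse. Every mouse therefore carried the targeted *Hras* allele, which in the WT mice was unrecombined, and only the *HrasG12V* mice carried Cre. Cre was driven by a promoter active in nearly all tissues, so the allele was not limited to muscle, and no group carried Cre without it. The methods call the WT mice littermates, without saying which mice shared a litter, and sex and batch are not labelled.

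The dystrophin glycoprotein complex links the actin cytoskeleton of a muscle fibre to laminin outside it. Dystrophin binds actin and the membrane protein dystroglycan, the sarcoglycans sit beside dystroglycan, and dystrobrevins and syntrophins bind dystrophin on the inner side. nNOS is held there by syntrophin and dystrophin, and the nitric oxide it makes acts on soluble guanylate cyclase. Loss of dystrophin or of a sarcoglycan causes muscular dystrophy, and utrophin, a relative of dystrophin found at the neuromuscular junction, can stand in for dystrophin in part.

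Promoter sequences are shown for the 4 of the 8 genes whose level in every *HrasG12V* mouse was below that in every WT mouse, as was so for 10.4% of all genes tested. Each is the RefSeq window from 250 bases before to 50 bases after a start site on GRCm38.p6, written 5′ to 3′ on the strand of the gene, with E-boxes, the motif CANNTG bound by the myogenic factors among others, in capitals. The *Nos1* window is chr5:117866589-117866888 on the plus strand, inside the annotated span of the gene. The others are on the minus strand, at chr5:73647688-73647987 for *Sgcb*, chr11:47379276-47379575 for *Sgcd* (inside its gene) and chr9:108263909-108264208 for *Dag1* (the first of its 2 windows).
Nos1: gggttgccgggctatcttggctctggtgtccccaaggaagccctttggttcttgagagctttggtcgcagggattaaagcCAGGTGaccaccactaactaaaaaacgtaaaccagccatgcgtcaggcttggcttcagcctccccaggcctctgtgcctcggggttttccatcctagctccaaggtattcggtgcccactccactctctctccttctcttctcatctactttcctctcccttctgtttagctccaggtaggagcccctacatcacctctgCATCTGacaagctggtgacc
Sgcb: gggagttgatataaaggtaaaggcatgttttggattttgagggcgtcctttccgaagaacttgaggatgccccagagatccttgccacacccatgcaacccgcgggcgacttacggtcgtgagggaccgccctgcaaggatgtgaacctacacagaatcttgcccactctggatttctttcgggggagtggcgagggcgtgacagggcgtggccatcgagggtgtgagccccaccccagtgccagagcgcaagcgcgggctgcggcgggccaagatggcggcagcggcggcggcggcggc
Sgcd: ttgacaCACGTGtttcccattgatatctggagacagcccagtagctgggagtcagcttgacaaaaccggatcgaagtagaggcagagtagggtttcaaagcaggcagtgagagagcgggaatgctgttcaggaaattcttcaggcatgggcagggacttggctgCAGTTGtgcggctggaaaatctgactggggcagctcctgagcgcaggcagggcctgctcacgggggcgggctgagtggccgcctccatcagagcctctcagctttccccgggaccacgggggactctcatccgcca
Dag1: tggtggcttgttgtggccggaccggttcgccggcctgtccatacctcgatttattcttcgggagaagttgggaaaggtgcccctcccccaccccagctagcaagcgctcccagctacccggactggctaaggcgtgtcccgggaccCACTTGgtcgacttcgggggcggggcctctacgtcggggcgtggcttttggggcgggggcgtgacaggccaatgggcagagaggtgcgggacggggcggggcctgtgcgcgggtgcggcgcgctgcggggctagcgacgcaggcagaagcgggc
The E-box motif, which reads the same on both strands, occurred 2 times in the *Nos1* window, 2 times in that of *Sgcd*, 1 time in that of *Dag1* and 0 times in that of *Sgcb*. It was present in 72.3% of all 32851 promoter windows, so its presence did not set these genes apart. Of the members that overlapped between genotypes, *Utrn* had 7 E-boxes, *Sgca* had 2, and *Dmd* had 3 in 1 of its windows and 0 in the other. The TATA box letters TATAAA, found on either strand in 13.6% of all windows, occurred in that of *Sgcb* and in 1 of *Dmd*, and the MCAT motif CATTCC, found in 14.7%, in that of *Sgcd*. These matches are letters in a window and say nothing about binding.

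The libraries had FPKM totals of 413020 to 814013. FPKM carry no read depth, and no counting interval is given. Of 10 skeletal fibre markers, *Mylpf*, *Tnni2*, *Pvalb* and *Mb* were at 516 FPKM or more in all 6 libraries, while the other 6 were listed at 0 in at least 1 library, *Acta1*, *Myh4* and *Atp2a1* in all 6, so these zeros cannot be read as absence. *Hras* was at 36.8, 36.0 and 51.8 FPKM in the WT mice and at 58.8, 28.9 and 16.0 in mice 2276, 2278 and 2279 (log2 fold change -0.44, SE 0.47, adjusted p in limma 0.797; -0.92 and past the unadjusted p without mouse 2276), a sum over both alleles that does not show the base change. Mouse 2276 stood apart by transcript length. Its median difference from the WT mean on the log2 scale was 0.74 for 960 genes under 1000 bases and -0.60 for 293 genes of 10000 bases and over, where mice 2278 and 2279 were between -0.12 and -0.02. *Nos1*, *Dmd* and *Utrn* have transcripts of over 10000 bases and *Sgca* a short one, so each of the 8 genes whose fold change moves by over 1.5 times without mouse 2276 is given with and without it.

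*Nos1* had the largest difference of the 8 genes. Its level was 5.27, 5.06 and 7.54 FPKM in WT mice 2277, 2280 and 2281, and 0.470, 0.521 and 1.48 FPKM in *HrasG12V* mice 2276, 2278 and 2279. The highest *HrasG12V* mouse was thus well below the lowest WT mouse, and mouse 2279 had more than the other two. The means were 5.96 ± 1.38 and 0.824 ± 0.569 FPKM (SD, n = 3 mice each), which leaves 13.8% of the WT level, and the log2 fold change on the scale of log2(FPKM + 0.1) was -2.85 with a standard error of 0.42. On that scale 62 of the 13359 genes tested had a lower fold change. Leaving out each mouse in turn gave -3.32 to -2.59, and removing the trend over transcript length gave -2.62. *Nos1* (chr5:117781032-117958840, plus strand, GRCm38) has 7 annotated transcripts, of up to 10123 bases, which share 1 value here, and it overlaps an antisense gene, *Gm26995*, and *Gm37028* on its own strand. The strand setting of the counting is not stated, so reads of these genes cannot be told apart with certainty. In whole muscle, fewer cells of a type and less RNA per cell cannot be told apart, which holds for every value here.

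**Figure D1:**
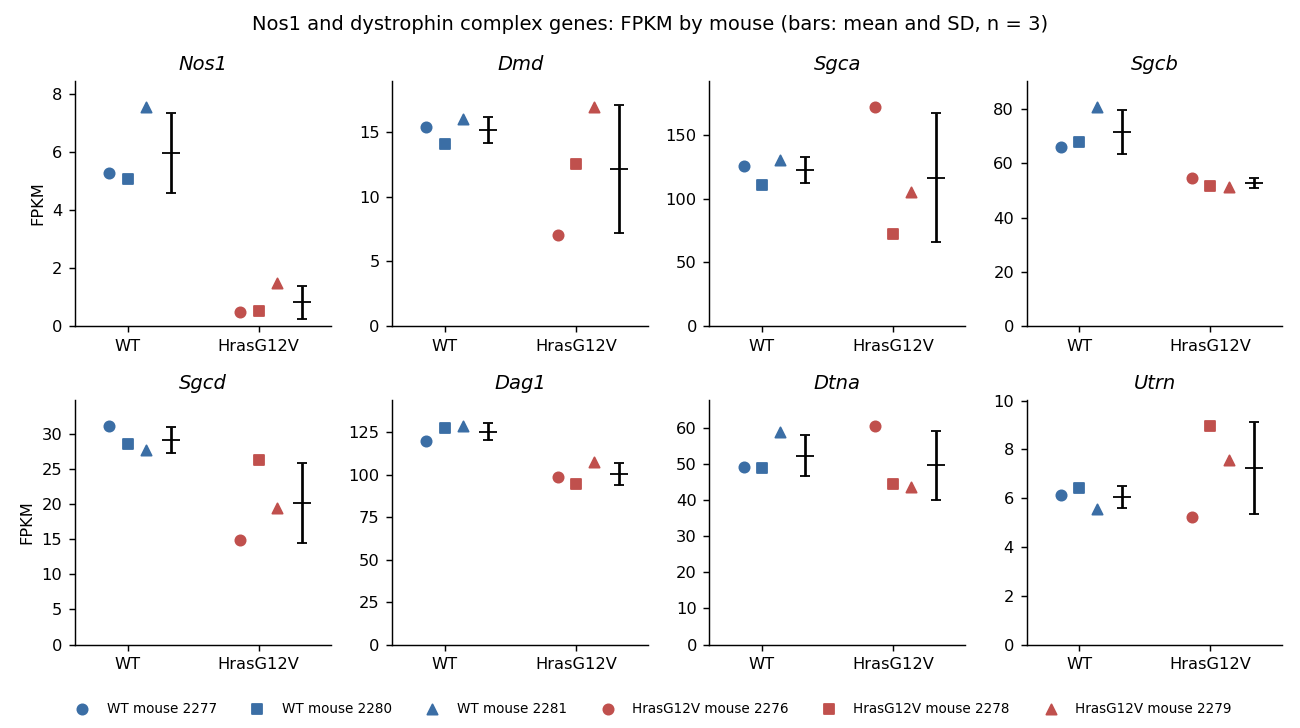
Level of each of the 8 genes (FPKM, linear axis from 0, 1 panel per gene with its own scale) in 3 WT and 3 *HrasG12V* mice. Each symbol is 1 mouse, and the bars beside them are the mean and SD. *Nos1*, *Sgcb*, *Sgcd* and *Dag1* had all *HrasG12V* mice below all WT mice, and the other 4 genes overlapped.

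*Dmd*, which encodes dystrophin, the anchor of the complex, did not separate the genotypes. It was at 15.4, 14.1 and 16.1 FPKM in the WT mice and at 7.04, 12.5 and 16.9 FPKM in mice 2276, 2278 and 2279. Mice 2276 and 2278 were below all WT mice, and mouse 2279 was above them. The log2 fold change was -0.40 (SE 0.32), -0.06 without mouse 2276, and -0.69 without mouse 2279. *Dmd* (chrX:82948870-85206141, plus strand) is X-linked and has the longest transcript of the 8, 14910 bases. Mouse 2276 and WT mouse 2277 lacked Y linked transcripts, and in the 4 libraries with them, a selection made after seeing the data that also leaves out mouse 2276, the *Dmd* value was -0.05.

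*Utrn* encodes utrophin, and was at 6.11, 6.43 and 5.56 FPKM in the WT mice and at 5.23, 8.97 and 7.56 FPKM in the *HrasG12V* mice. *Utrn* lies at chr10:12382188-12869365 on the minus strand. Mice 2278 and 2279 were above all WT mice and mouse 2276 was below them, and the log2 fold change of 0.23 (SE 0.22) became 0.44 without mouse 2276. *Dtna* encodes alpha-dystrobrevin, which binds dystrophin and syntrophin. Its levels of 49.1, 48.9 and 58.9 FPKM in the WT mice and 60.5, 44.5 and 43.6 FPKM in the *HrasG12V* mice overlapped, and its log2 fold change was -0.09 (SE 0.21), -0.24 without mouse 2276 and 0.092 with the length trend removed. Both genes thus overlapped between genotypes, and leaving out each mouse in turn gave 0.06 to 0.44 for *Utrn* and -0.24 to 0.00011 for *Dtna*.

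The dystrophin to utrophin ratio combines these values. *Dmd* was 2.52, 2.20 and 2.89 times the level of *Utrn* in the WT mice and 1.35, 1.40 and 2.24 times in the *HrasG12V* mice. Mice 2276 and 2278 were below all WT mice, but mouse 2279 fell inside the WT range, with means of 2.54 ± 0.349 and 1.66 ± 0.503 (SD, n = 3). The 2 remaining genes of the family were tested as other genes of the complex. *Drp2*, a dystrophin relative known from Schwann cells, was at 3.07 to 5.62 FPKM in the WT mice and 3.19, 6.99 and 10.5 FPKM in the *HrasG12V* mice (log2 fold change 0.65, SE 0.45, adjusted p = 0.676). Its value was 1.11 without mouse 2276 and, with all mice, 0.998 with array weights and 0.84 with the length trend removed, where it passed the unadjusted p each time, and 0.27 without mouse 2279, where it did not. *Dtnb*, beta-dystrobrevin, was at 0.549 to 0.931 FPKM in the WT mice and 0.933 to 1.29 FPKM in the *HrasG12V* mice (log2 fold change 0.57, SE 0.30, adjusted p = 0.578). The 6 Schwann cell markers summed to 136 to 374 FPKM in the WT mice and 231 to 621 in the *HrasG12V* mice, with 2 of 6 past the unadjusted p and none at 0 in all libraries, and their part in the *Drp2* values was not tested.

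The sarcoglycans form a subcomplex that steadies dystroglycan in the membrane, and the values of its genes differed from mouse to mouse. *Sgcb*, beta-sarcoglycan, was at 65.9, 68.0 and 80.7 FPKM in the WT mice and at 54.7, 51.8 and 51.3 FPKM in the *HrasG12V* mice. All 3 *HrasG12V* mice lay close together and below the lowest WT mouse. The mean was 73.6% of that in WT and the log2 fold change was -0.44 (SE 0.18), with -0.49 to -0.35 when each mouse was left out. *Sgcb* is at chr5:73632749-73647790 on the minus strand, on the chromosome that also holds *Nos1*.

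*Sgcd*, delta-sarcoglycan, was at 31.1, 28.5 and 27.6 FPKM in the WT mice and at 14.9, 26.2 and 19.4 FPKM in the *HrasG12V* mice. Again every *HrasG12V* mouse was below every WT mouse, with mouse 2278 nearest to them. The mean was 69.4% of that in WT. The log2 fold change of -0.56 (SE 0.24) became -0.36 without mouse 2276, which had the lowest level. *Sgcd* lies at chr11:46896253-47988969 on the minus strand.

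*Sgca*, alpha-sarcoglycan, showed no such separation. Its levels were 125, 111 and 131 FPKM in the WT mice and 172, 72.5 and 105 FPKM in the *HrasG12V* mice, so mouse 2276 was the highest of all 6 and mouse 2278 the lowest. The log2 fold change was -0.16 (SE 0.34). It was -0.48 without mouse 2276 and 0.14 without mouse 2278, so its sign rests on 1 mouse. *Sgca* has the shortest transcript of the 8, 1724 bases (chr11:94962791-94976327, minus strand).

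The sarcoglycan proportions varied more in the *HrasG12V* mice. *Sgca* was 1.62 to 1.90 times the level of *Sgcb* in the WT mice and 3.14, 1.40 and 2.05 times in mice 2276, 2278 and 2279. *Sgcd* was 21.1% to 25.6% of *Sgca* in the WT mice and 8.65%, 36.2% and 18.4% in those mice. Both ratios were displaced most in mouse 2276, which stood apart by transcript length. The genes of these ratios differ in length (1724 bases for *Sgca*, 3786 for *Sgcb* and 4453 for *Sgcd*), and the part of length was not tested. *Sgce*, epsilon-sarcoglycan, had a log2 fold change of -0.10 (SE 0.17, adjusted p = 0.890), and *Sspn*, sarcospan, of -0.20 (SE 0.22, adjusted p = 0.810). *Sgce* and *Sspn* did not pass the test. *Sgcz* was listed at 0 in all 6 libraries and was not tested.

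*Dag1* encodes dystroglycan, the receptor that joins dystrophin to laminin. Its level was 119.9, 127 and 129 FPKM in the WT mice and 98.4, 94.8 and 107 FPKM in the *HrasG12V* mice. The groups did not overlap, and the *HrasG12V* mean was 79.9% of the WT mean. The log2 fold change was -0.32 (SE 0.19), with -0.38 to -0.29 when each mouse was left out, and -0.16 once the trend over transcript length was removed. *Dag1* lies at chr9:108204634-108263958 on the minus strand.

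Over the 8 genes, 4 of 8 had every *HrasG12V* mouse below every WT mouse (10.4% of all genes tested) and 0 of 8 had every one above (8.11%). Since *Nos1* was chosen in this comparison and the others with its results known, nothing is read from these counts. The median log2 fold change of the 7 genes other than *Nos1* was -0.32, where that of all genes tested was -0.03. With the length trend removed the 7 had a median of -0.16 and all genes of 0.015. The 7 spanned -0.56 for *Sgcd* to 0.23 for *Utrn*, far from the -2.85 of *Nos1*.

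**Figure D2:**
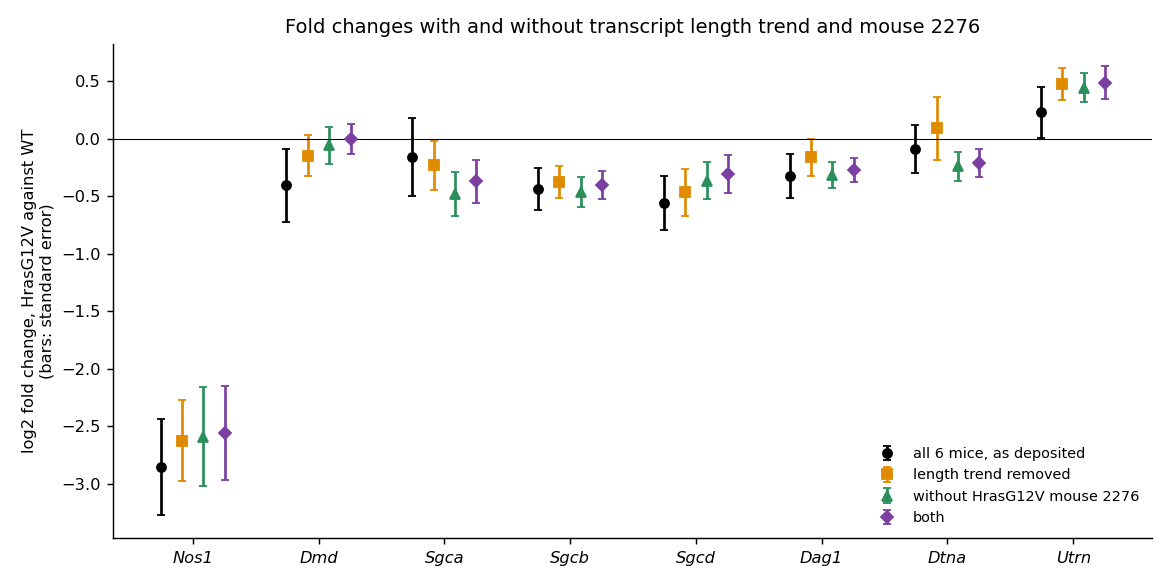
Log2 fold change (*HrasG12V* against WT) of the 8 genes with all 6 mice as deposited, with the trend over transcript length removed, without mouse 2276, and with both. Bars are standard errors. *Nos1* stayed between -2.85 and -2.56, while *Dmd* moved from -0.40 to -0.0031 and *Utrn* from 0.23 to 0.49.

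The order of the levels among the 8 genes was described per length of transcript. In WT muscle *Dag1* (mean 125 FPKM) and *Sgca* (122) led and overlapped, followed by *Sgcb* (71.6), *Dtna* (52.3), *Sgcd* (29.1) and *Dmd* (15.2), each apart from its neighbours. *Utrn* (6.03) and *Nos1* (5.96) came last and overlapped. In *HrasG12V* muscle *Sgca* (117) and *Dag1* (100.2) overlapped, as did *Sgcb* (52.6) with *Dtna* (49.5), *Sgcd* (20.2) with *Dmd* (12.2), and *Dmd* with *Utrn* (7.25). *Nos1* (0.824) was then alone at the bottom, apart from *Utrn*.

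Syntrophins bind nNOS directly, and 2 of them outside the 8 genes, *Sntb1* and *Sntb2*, were tested. *Sntb1*, beta-1-syntrophin, was at 5.07, 4.17 and 3.12 FPKM in the WT mice and at 1.89, 3.83 and 4.92 FPKM in the *HrasG12V* mice, with a log2 fold change of -0.28 (SE 0.37, adjusted p = 0.846) that turned to 0.10 without mouse 2276. *Sntb2*, beta-2-syntrophin, had a log2 fold change of -0.32 (SE 0.52, adjusted p = 0.883), which turned to 0.30 without mouse 2276. *Sntg1* and *Sntg2* were below 0.2 FPKM and not tested.

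Set against dystrophin, *Nos1* was 34.2%, 35.8% and 46.9% of *Dmd* in the WT mice. It was 6.68%, 4.16% and 8.73% of *Dmd* in mice 2276, 2278 and 2279, so the lower *Nos1* remained in each mouse after scaling to dystrophin. The means were 39.0% ± 6.93 and 6.52% ± 2.29 (SD, n = 3). These ratios use the *Nos1* values that chose the genes and are given without a test.

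**Figure D3:**
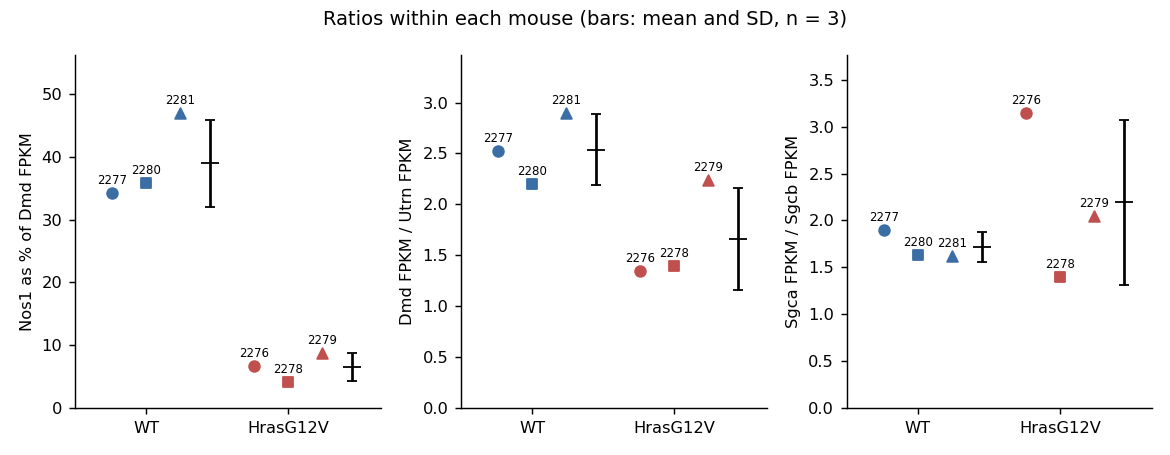
Ratios of FPKM within a mouse for *Nos1* to *Dmd* (percent), *Dmd* to *Utrn* and *Sgca* to *Sgcb*, with symbols for single mice and bars for the mean and SD (n = 3). *Nos1* to *Dmd* was lower in all 3 *HrasG12V* mice, *Dmd* to *Utrn* overlapped through mouse 2279, and *Sgca* to *Sgcb* was highest in mouse 2276 and lowest in mouse 2278.

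Dystroglycan binds laminin through a glycan built by a chain of enzymes. Of all genes tested, 4.99% were lower and 5.18% higher at an unadjusted p below 0.05, 10.2% together, and 0.0599% passed the adjusted p. Of 17 such enzymes tested, 0 had an unadjusted p below 0.05 in limma in either direction, and their median log2 fold change was -0.17. *Pomgnt2*, an enzyme of the glycan core, was lowest at -0.38. It was -0.62 without mouse 2276, where it passed the adjusted p in limma (0.0445), -0.55 with array weights, where it passed the unadjusted p, and -0.26 without mouse 2279. *Dpm3*, a subunit of dolichol phosphate mannose synthase, was highest at 0.37, which turned to -0.08 without mouse 2276. Of 12 laminins and other matrix ligands, 1 was lower and 0 were higher at an unadjusted p below 0.05, with a median of -0.32. That 1 was *Hspg2*, perlecan, which was at 67.4, 68.7 and 65.2 FPKM in the WT mice and 46.0, 55.3 and 46.1 FPKM in the *HrasG12V* mice (log2 fold change -0.45, SE 0.18, past the unadjusted p, adjusted p = 0.481). Its transcript is long, 14187 bases, and its value was -0.20 with the length trend removed, which did not pass (adjusted p = 0.731). It passed without mouse 2276 (-0.41) and without mouse 2278, and missed when any of the 4 other mice was left out, under quantile normalization, at the same total and with the Y linked term, where its log2 fold change stayed between -0.47 and -0.40. *Col6a3*, a collagen VI chain, had the lowest value, -0.76 (-0.39 without mouse 2279, and -1.24 without mouse 2278, where it passed the unadjusted p), and *Lamb2*, a laminin chain, the highest, 0.01, which was -0.21 without mouse 2276. Without mouse 2278, *Col6a1*, *Col6a2*, *Lamc1* and *Nid1* also passed the unadjusted p with lower levels. In that fit 5.58% of all genes tested were lower at an unadjusted p below 0.05. *Lama2*, the laminin chain of the muscle basement membrane, was at 18.3 to 19.8 FPKM in WT and 13.4 to 19.1 FPKM in *HrasG12V* mice. The 6 fibroblast markers summed to 1449 to 2955 FPKM in the WT mice and to 686 to 2589 FPKM in the *HrasG12V* mice, with 0 of 6 past the unadjusted p in limma, and their part in the matrix genes was not tested.

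Nitric oxide signalling genes were tested next to *Nos1*. Of 13 tested, 2 were lower and 0 higher at an unadjusted p below 0.05, 0 passed the adjusted p in limma, and 6 of 13 (46.2%) had every *HrasG12V* mouse below every WT mouse, beside the 10.4% of all genes. Their median log2 fold change was -0.49. *Prkg1*, the cGMP-dependent kinase that acts downstream of guanylate cyclase, was at 13.6, 11.2 and 9.43 FPKM in the WT mice and at 4.03, 5.35 and 6.73 FPKM in the *HrasG12V* mice (log2 fold change -1.08, SE 0.24, past the unadjusted p, adjusted p = 0.345). *Nos3*, the endothelial nitric oxide synthase, was at 6.66, 6.005 and 6.97 FPKM in the WT mice and at 4.95, 4.39 and 4.51 FPKM in the *HrasG12V* mice (log2 fold change -0.49, SE 0.14, past the unadjusted p, adjusted p = 0.398). Both kept an unadjusted p below 0.05 when any 1 mouse was left out, and *Nos3* missed it with libraries scaled to the same total, where its log2 fold change was -0.51.

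The guanylate cyclase subunits *Gucy1a3*, *Gucy1a2* and *Gucy1b3* had log2 fold changes of -0.64, -0.71 and -0.51, which did not pass the test with all mice as deposited. Against the WT mean mouse 2276 was at -1.45, -1.31 and -0.95 for these, and mice 2278 and 2279 were between -0.58 and -0.18. *Gucy1a2* and *Gucy1b3* passed the unadjusted p under quantile normalization, where 6.48% of all genes were lower. *Gucy1b3* also passed it without mouse 2278. *Gucy1a3* was at 7.71 to 9.45 FPKM in the WT mice and at 3.08, 7.35 and 7.22 FPKM in mice 2276, 2278 and 2279, so mouse 2276 was again the lowest. *Nos2*, the inducible synthase, was at 1.42 to 1.60 FPKM in the WT mice and 0.911 to 1.26 in the *HrasG12V* mice. *Ddah2*, which degrades an inhibitor of the synthases, had the highest value of this list, 0.37 (0.65 without mouse 2279, where it passed the unadjusted p). *Nos1ap*, an adaptor of nNOS, and the arginases *Arg1* and *Arg2* were too low to test.

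Several of these genes are known from vessels, so vessel markers are set beside them. The 8 endothelial markers summed to 205 to 247 FPKM in the WT mice and to 172 to 178 FPKM in the *HrasG12V* mice. Of the 8, 3 were lower at an unadjusted p below 0.05 and none was listed at 0 in all libraries. *Cdh5* had a log2 fold change of -0.66 and *Flt1* of -0.91, where *Pecam1* had -0.25. The 6 smooth muscle and pericyte markers summed to 318 to 379 FPKM in the WT mice and 163 to 281 FPKM in the *HrasG12V* mice, with 1 of 6, *Rgs5* (-1.09), lower at an unadjusted p below 0.05. *Rgs5* was the largest part of that sum, and *Tagln* and *Cnn1* had positive values that did not pass, 0.28 and 0.55. The part of these markers in the values of *Nos3*, *Prkg1* and *Hspg2* was not tested.

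Among proteins of caveolae and membrane repair, 1 of 10 was lower and 0 were higher at an unadjusted p below 0.05, with a median of -0.02. *Ano5*, a membrane repair protein whose loss causes a muscular dystrophy, was at 57.5, 45.2 and 72.7 FPKM in the WT mice and at 21.0, 32.5 and 42.1 FPKM in the *HrasG12V* mice (log2 fold change -0.90, SE 0.32, past the unadjusted p, adjusted p = 0.456). It was no longer past the test without WT mouse 2277, WT mouse 2281 or mouse 2278, where its log2 fold change was -0.95 to -0.73, nor under quantile normalization, the same total or array weights, where it was -0.91 to -0.65. *Anxa2* had the highest value of the list, 0.32 (0.70 without mouse 2279, where it passed the unadjusted p). *Cav3*, the caveolin of muscle, was at 46.7 to 66.0 FPKM in the WT mice and at 120, 55.5 and 41.5 FPKM in the *HrasG12V* mice. Of 17 costamere linkers, which join the membrane to the Z disc, 0 had an unadjusted p below 0.05 in limma, with a median of -0.23, and *Lims2* (-0.55) and *Krt19* (0.41) were the extremes. *Lims2* was -0.87 without mouse 2276, where it passed the adjusted p in limma (0.0486), and -0.27 without mouse 2278, where it did not pass. With all mice it passed the unadjusted p under quantile normalization (-0.54), at the same total (-0.56), with array weights (-0.88) and with the length trend removed (-0.61).

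**Figure D4:**
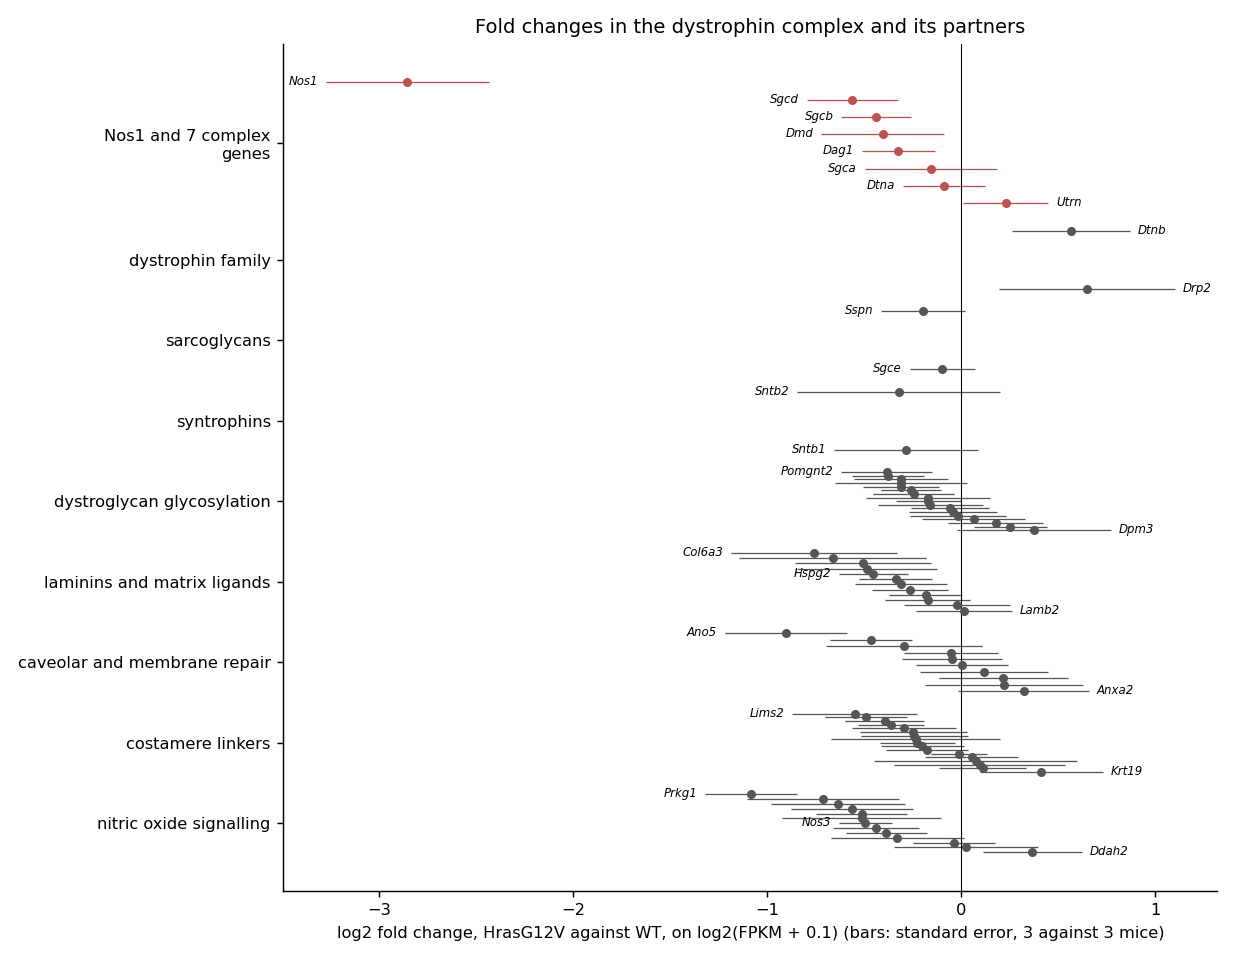
Log2 fold change (*HrasG12V* against WT) of each of the 8 genes and of every tested gene in 8 lists of the complex, its ligands, its linkers and nitric oxide signalling. Each point is 1 gene and its bar the standard error. The lists leave out the 8. *Nos1* was the lowest of all, and the nitric oxide list had the lowest median of the lists, -0.49.

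Over the 75 tested genes of these lists other than the 8, 4 were lower (5.33%, where all genes tested gave 4.99%) and 0 were higher (5.18%) at an unadjusted p below 0.05 in limma, and 0 passed the adjusted p. Of the 75, 56 (74.7%) had a negative log2 fold change, as did 53.4% of all genes tested. Their median was -0.24, 13 (17.3%) had every *HrasG12V* mouse below every WT mouse (10.4% of all genes), and 2 (2.67%) had every one above (8.11%). The counts moved with single mice. Leaving out mouse 2278 gave 11 lower list genes (14.7%, and 5.58% of all genes) and leaving out WT mouse 2281 gave 2 (2.67%, and 2.26% of all genes). Without mouse 2276, 15 list genes were lower, while the share of all genes that were lower rose to 17.3%, and 6 list genes passed the adjusted p, as did 1374 of all genes tested. *Nos3* and *Prkg1* were the 2 genes among the 6 that also passed the unadjusted p with all mice.

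**Figure D5:**
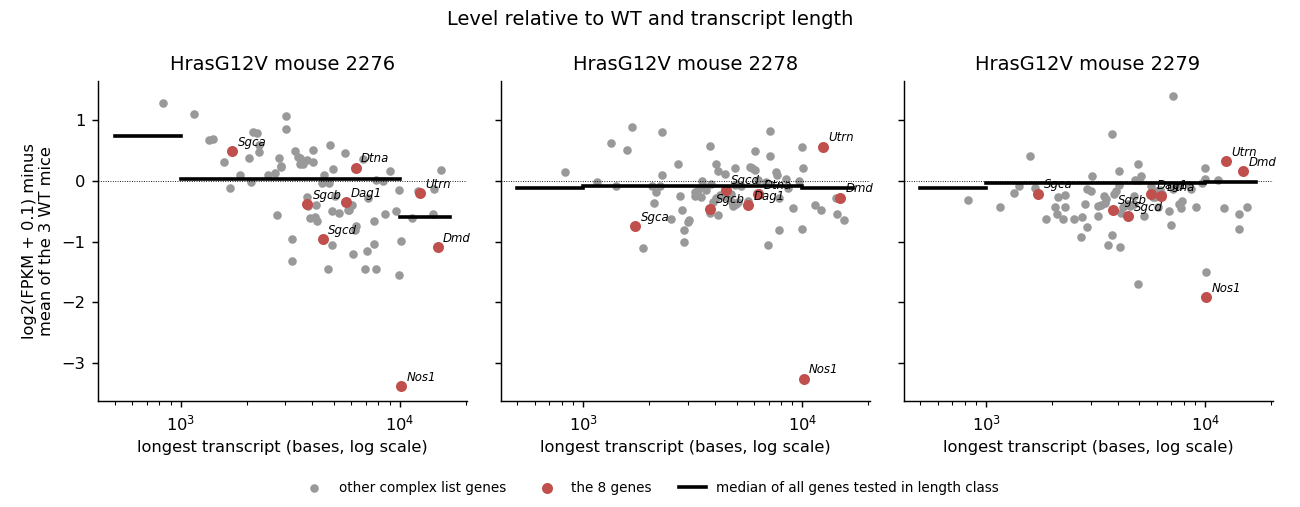
Log2 difference of each *HrasG12V* mouse from the WT mean against transcript length (bases, log axis), 1 panel per mouse, with the 8 genes in red, other genes of the lists in grey, and black lines for the median of all genes tested in 3 length classes. In mouse 2276 that median fell from 0.74 to -0.60 with length, and *Dmd* lay low and *Sgca* high, while *Nos1* was far below the lines in all 3 mice.

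Fibre type and other cells also differed between libraries. The 6 slow fibre markers summed to 1096, 1089 and 42.0 FPKM in WT mice 2277, 2280 and 2281 and to 866 to 2781 FPKM in the *HrasG12V* mice. WT mouse 2281, which had nearly no slow fibre transcripts, had the highest *Nos1*, 7.54 FPKM. The fast 2B markers summed to 15581 to 25762 FPKM in the WT mice and 14707 to 38139 FPKM in the *HrasG12V* mice, so these sums overlapped. *Pvalb* was the largest part of them, and *Myh4*, the 2B myosin, was listed at 0 in all 6 libraries. The 8 markers of junctional nuclei summed to 101 to 113 FPKM in the WT mice and 307 to 555 FPKM in the *HrasG12V* mice, with 6 of 8 higher at an unadjusted p below 0.05. B and T cell markers summed to at most 1.61 FPKM in the WT mice and to 2.31, 92.6 and 83.6 FPKM in mice 2276, 2278 and 2279. The 6 neutrophil markers, 3 of them at 0 in some library, summed to 0.716 to 3.64 FPKM in the WT mice and to 19.7, 131 and 51.8 FPKM in mice 2276, 2278 and 2279. Of the 5 tested, 4 were higher at an unadjusted p below 0.05. The 6 macrophage markers summed to 38.8 to 43.7 FPKM in the WT mice and 44.4 to 72.7 FPKM in the *HrasG12V* mice, with 2 of 6 higher at an unadjusted p below 0.05. The 5 adipocyte markers summed to 401 to 704 FPKM in the WT mice and 774 to 817 FPKM in the *HrasG12V* mice, with 0 of 5 past the unadjusted p in limma. The part of all these differences in the values of the 8 genes was not tested.

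The genes most like *Nos1* over the 6 libraries, by Pearson's r on log2(FPKM + 0.1) among 12177 genes, were *Nampt* (0.996), *Fbxo40* (0.994), *Scarb2* (0.994), *Sema7a* (0.993) and *Wwp1* (0.992). The 6 points share the 2 genotypes. All 5 had every *HrasG12V* mouse below every WT mouse, and 137 genes had an r above 0.95, so this is a description only. *Wwp1*, a ubiquitin ligase, had means of 72.5 ± 7.59 and 40.8 ± 7.17 FPKM (SD, n = 3). *Fbxo40*, a muscle F-box protein, had means of 93.7 ± 3.92 and 61.3 ± 5.87 FPKM. Their differences were much smaller than that of *Nos1*. Among the members r to *Nos1* was 0.981 for *Dag1*, 0.884 for *Sgcb*, 0.713 for *Sgcd* and 0.682 for *Dmd*, and lower for *Sgca* (0.168), *Dtna* (0.126) and *Utrn* (-0.366).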

How the data were processed

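RNA from 6 gastrocnemius muscles, 1 library per mouse, was sequenced by the authors from stranded mRNA libraries as single-end reads. According to the methods and the submitters' processing notes, reads were mapped with TopHat to GRCm38/mm10, and the authors deposited Cuffnorm FPKM, 1 value per gene symbol. No source used here gives the annotation or the versions of the mapping and quantification tools. Low values gave no clear steps of whole reads, so no count model was used. Between 2 WT libraries, the fullest narrow interval held 3.06% to 3.74% of the ratios of low values. In pairs with an *HrasG12V* library it held 0.713% to 1.61%, and the cause was not tested. The methods give a nominal read number, the same for every sample, and the depth of each library is not known from the values.

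From these FPKM, log2(FPKM + 0.1) was computed for the 13359 genes whose mean reached 0.5 FPKM, and the 2 groups were set against each other in limma 3.58.1 (R 4.3.3; moderated by empirical Bayes along a trend of abundance, two-sided, no covariate) with Benjamini-Hochberg adjustment over all 13359. The methods state an unpaired comparison with false discovery rate correction. The p-values measure the spread between these mice. The script was tested on simulated data. Tables were built with pandas 2.3.3 and numpy 2.4.6, and figures with matplotlib 3.10.9, in Python 3.11.15.

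The 8 genes and the gene lists were chosen with earlier results of these data known. Genes named outside the 8 are the list genes past the unadjusted p of 0.05, the highest and lowest of each list, the 5 most like *Nos1* among genes of at least 1 FPKM, *Hras* and defining markers. *Sgcz*, *Lama2*, *Cav3*, the guanylate cyclase subunits, *Nos2*, the untested list genes, *Gm26995* and *Gm37028* were named after their values were seen. So were *Col6a1*, *Col6a2*, *Lamc1* and *Nid1*. GENCODE vM21 (GRCm38) held 23632 of the symbols and gave their lengths and positions, and promoters from RefSeq on GRCm38.p6, where 7 of the 8 genes were used. Alternatives were other pseudocounts (1 and 0.01), filters and scalings, array weights, robust moderation, removing the length trend, adding a term for Y linked transcripts, and fits with 1 mouse left out. Results for 2 genes are not reported here, and the lists leave them out.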

Additional observations from a re-analysis of the deposited data

How the results depend on the processing

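No paired analysis was possible because the labels give the genotypes no shared replicate numbers and no source says which littermates belong together. Every alternative left *Nos1* negative. Its log2 fold change was -1.96 with a pseudocount of 1, which shrinks low genes. *Dag1* was -0.16 with the length trend removed. Genes with an unadjusted p below 0.05 numbered 692 higher and 666 lower, and 382 and 335 with libraries at the same total, 1397 and 1645 with array weights, 304 to 1686 and 298 to 2320 with 1 mouse left out. Genes past the adjusted p numbered 8, 5 with a pseudocount of 1, 572 with array weights and 6 to 1374 with 1 mouse left out. Of the 75 list genes, the 4 lower ones became 10 with quantile normalization, 13 with array weights and 2 to 15 with 1 mouse left out, and the 0 higher ones became 1 with array weights, 1 with the length trend removed and 0 to 2 with 1 mouse left out. Of the fits with 1 mouse left out, the one without mouse 2276 made the most calls each time, except for higher list genes (2 without mouse 2279). With 1 mouse left out *Dpm3* ran from -0.080 to 0.71, *Lamb2* from -0.21 to 0.19, *Sntb1* from -0.57 to 0.10 and *Sntb2* from -0.76 to 0.30 (each turned without mouse 2276), and *Sgce* from -0.20 to 0.041 and *Hras* from -0.92 to 0.010 (each turned without mouse 2279). *Hras* passed the unadjusted p without mouse 2276 and with array weights (-0.73). Array weights gave *Lamb2* -0.19 and *Sntb2* 0.22. The cause was not tested.

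Settings chosen after seeing the data were the 4 libraries with Y linked transcripts, and the length trend removed together with mouse 2276 left out. They gave 1303 and 2076 higher genes, 1461 and 1685 lower genes, 372 and 1232 past the adjusted p, 10 and 13 lower list genes, and 1 and 2 higher list genes. *Lamb2* was -0.20 and -0.17, *Sntb1* 0.26 and 0.15, *Sntb2* 0.24 and 0.33, and *Dpm3* -0.17 in the first.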
